A study of Mus musculus with 20 samples.

Results

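*Oga* (*Mgea5* in the annotation used) encodes O-GlcNAcase, the enzyme that removes O-linked N-acetylglucosamine from nuclear and cytoplasmic proteins. It lies next to *Fgf8* on mouse chromosome 19, on the telomeric side of the *Lbx1*/*Fgf8* locus, and its contacts were read from Capture Hi-C maps of E11.5 fore- and hindlimb buds. The members are the bin pairs that join the bin with the start of *Oga* (chr19:45855001-45860000, mm9) to any other bin between 44440001 and 46400000. Of 392 bins of 5 kb, 387 (*Dup*), 389 (*Inv1*), 388 (*Inv2*), 376 (heterozygous *Dup*), 389 (heterozygous *Inv1*) and 389 (wild-type) had a value with this bin. The whole maps held between 72739 and 75818 bin pairs with values. *Dup* is a tandem duplication of 541.1 kb from the centromeric side of *Lbx1* into the domain of *Fgf8*. *Inv1* is an inversion of 123.1 kb that holds *Poll*, *Dpcd* and all of *Fbxw4* but its first bases, and *Inv2* an inversion of 460.4 kb with the telomeric breakpoint of *Dup*. The breakpoint nearest to *Oga* lay 65.5 kb from its start in *Dup* and *Inv2* and 124.1 kb in *Inv1*, so the gene itself was intact and outside all rearrangements.

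The homozygous *Dup*, *Inv1* and *Inv2* maps and the wild-type map each merged 4 libraries (3 biological replicates and 1 technical replicate), the heterozygous *Inv1* map merged 3, and the heterozygous *Dup* map was a single library. *Dup*, *Inv1* or *Inv2* without further mention means homozygous below. The mutants were made by CRISPR/Cas9 in embryonic stem cells and are all labelled G4 ESC (a hybrid line), whereas the wild-type is labelled as strain c57bl6.J. For the *Dup* animals of another assay the study names a C57Bl6 background. Where the strains differ, strain and rearrangement cannot be told apart. The heterozygous *Dup* library is titled as such, but its genotype label names an inversion. With 1 merged map per genotype there was no replicate spread and no test. All intervals given are 95% intervals for counting error only, and those of shares are approximate. The *Oga* bin had 32987 (*Dup*), 44750 (*Inv1*), 48693 (*Inv2*), 9088 (heterozygous *Dup*), 28809 (heterozygous *Inv1*) and 28178 (wild-type) read pairs outside the bin itself and 5 kb on either side. The heterozygous *Dup* values are therefore the least precise.

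In a chromosome contact map, a topologically associating domain (TAD) is a stretch whose parts touch each other more often than they touch the neighbouring stretches, and a boundary is the place where this preference turns over. CTCF, a zinc finger protein that halts loop extrusion by cohesin, binds many boundaries, and the orientation of its sites matters for which boundaries form loops. Capture Hi-C counts ligated pairs of DNA ends from fixed nuclei after enrichment of a chosen region, and the contacts of a single bin form its virtual profile. At this locus the *Lbx1* TAD (bins from 45290001 to 45615000) and the *Fgf8* TAD (45650001 to 45820000) are set apart by a middle boundary (45615001 to 45650000). They lie between a centromeric boundary (45280001 to 45305000) and a telomeric boundary (45810001 to 45835000). Each TAD, as set here, shares bins with its outer boundary. *Oga* is transcribed from the minus strand, from its start at 45858236 to its end at 45824751, so the 33.5 kb gene begins beyond the telomeric boundary and runs back into it.

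Matches of a 9-letter core of the CTCF motif, AGNNGGCGC, were searched on both strands of mm9, from the first bin of the telomeric boundary to the bin after the start of *Oga*. Whether they have a part in the turns of contact direction described below was not tested. In these 11 bins there were 3 matches, in 2 bins. Over all 392 bins, 88 (22.4%) held at least 1, so bins with a match were not more frequent here than over the whole region. In the lines below, capitals mark the matched letters, with 6 bases of mm9 on either side, read 5′ to 3′ on the strand of the match.
Between *Fgf8* and *Npm3*, plus strand, chr19:45821029-45821037: cccaccAGAGGGCGCtagttc
In the coding sequence of *Oga*, minus strand, chr19:45857593-45857601: agagccAGGCGGCGCtggagg
In the 5′ UTR of *Oga*, plus strand, chr19:45857902-45857910: ggaccgAGGAGGCGCcttcgc
The match between *Fgf8* and *Npm3* lay 37.2 kb from the start of *Oga*, and the pair within *Oga* lay 643 and 334 bases inside the gene. A match is a description of letters and not of binding, which was not measured in the files used here. The edges of the rearrangements on the side of *Oga* are given by the guide targets found in mm9, with the PAM in capitals.
*Dup* and *Inv2*, telomeric, minus strand, chr19:45792723-45792742: ttaaatttctccaagataagAGG
*Inv1*, telomeric, plus strand, chr19:45734085-45734104: ggtgacaccagtattcctcgAGG

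In the wild-type map the *Oga* start had little contact for its distance with the neighbouring *Fgf8* TAD. With the far, centromeric edge of the locus it had much for its distance. In share of the profile the *Fgf8* TAD still took more, 13.3%, against 1.35% for the centromeric boundary. Observed over expected contact, the signal divided by the mean of all wild-type bin pairs at the same distance, was 0.66 with the *Fgf8* TAD (0.638 to 0.682, 3940 read pairs). It was 0.896 with the AER enhancer interval inside it, which holds enhancers of *Fgf8* for the apical ectodermal ridge (0.84 to 0.955). With the *Lbx1* TAD it was 0.996 (0.961 to 1.03), the value of an average pair at that distance. This TAD, as set here, includes bins of the centromeric boundary, which had high values. For their distance, the centromeric and middle boundaries had more contact than either TAD, but the telomeric boundary, next to *Oga*, had 0.962 (0.924 to 1.0). The centromeric flank had 1.32 (1.27 to 1.37). Contact reached 1.24 at the middle boundary (1.16 to 1.34) and 2.73 at the centromeric boundary (2.47 to 3.01, 425 read pairs). All 5 bins of the centromeric boundary were among the 15 highest of all bins more than 50 kb away with at least 20 read pairs, where 9 of the 15 lay between 555 and 605 kb from *Oga*. The highest of all was a bin at 45265001 to 45270000 with 4.14 (2.86 to 6.0, 28 read pairs), which holds no gene.

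**Figure D1:**
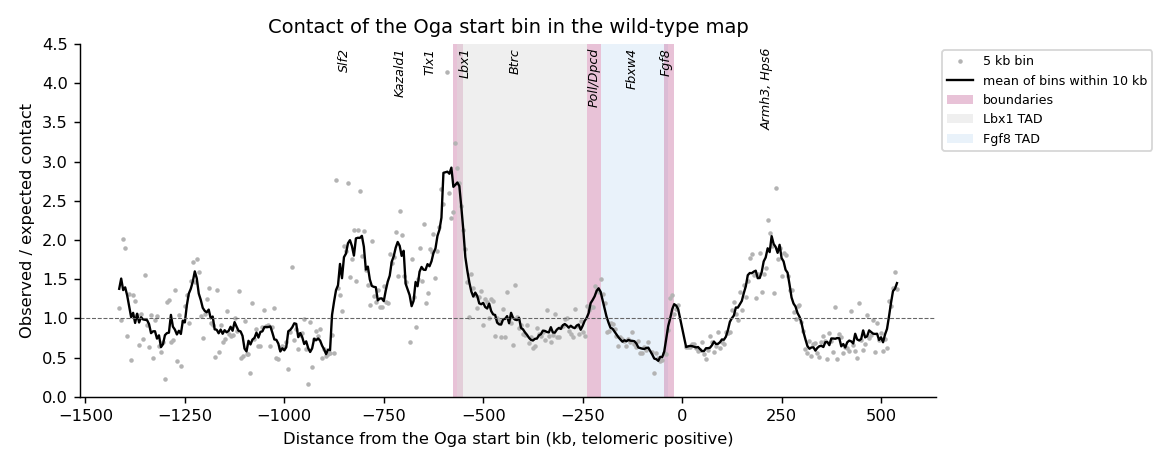
Observed over expected contact of the *Oga* start bin in the wild-type map against the distance from that bin in kb, with 5 kb bins as grey points and the mean of bins within 10 kb as a black line. Contact stood at 2.73 at the centromeric boundary, 1.24 at the middle boundary and 0.66 over the *Fgf8* TAD, and gene names mark the start bins of the genes at the top.

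Among the 26 gene start bins more than 50 kb away, the 5 with the highest observed over expected contact with *Oga* lay on both sides of the locus. *Kazald1*, which encodes a secreted protein of the insulin-like growth factor binding protein family, ranked first with 2.37 (1.77 to 3.18, 45 read pairs). *Armh3*, for an armadillo-like helical domain protein, followed with 2.25 (1.95 to 2.6, 187 read pairs), and *Hps6*, for a subunit of the BLOC-2 complex of lysosome-related organelles, with 2.08 (1.66 to 2.61). *Armh3* and *Hps6* start 215 and 220 kb beyond *Oga* in neighbouring bins, so they are readings of the same stretch. *Slf2*, whose product recruits the SMC5/6 complex to DNA damage, had 1.92 (1.41 to 2.62), and *Tlx1*, a homeobox gene needed for the spleen, had 1.89 (1.29 to 2.75). The intervals of all 5 overlapped, so their order is not settled at this depth. With a bin on either side, *Kazald1* had 1.99, level with *Armh3* (1.99) and below *Hps6* (2.09). *Slf2* then had 1.62 and *Tlx1* 1.69, both below *Lbx1* with 1.83, *Ldb1* with *Pprc1* (1.73) and *Sema4g* (1.72).

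By single start bins, the genes of the locus itself took lower ranks, apart from *Lbx1*. The homeobox gene *Lbx1*, which marks migrating muscle precursors of the limb, ranked 6 with 1.88 (1.51 to 2.35), close to *Tlx1*. *Btrc*, which encodes a substrate receptor of a ubiquitin ligase, had 1.43 (1.03 to 1.97), but 1.03 with a bin on either side. The shared start bin of *Poll*, a DNA polymerase gene, and *Dpcd* had 1.41 (1.191 to 1.68). *Fbxw4*, for an F-box protein, had 0.821 (0.641 to 1.05) although it starts only 125 kb away. The start bin of *Twnk*, for the mitochondrial helicase, had 1.29 (0.89 to 1.87). Closer than 50 kb, the start of *Fgf8*, the signal of the ectodermal ridge, had 0.546 (0.482 to 0.619, 245 read pairs) at 40 kb, and *Kcnip2*, a potassium channel-interacting protein gene, had 0.621 (0.553 to 0.699) at 35 kb on the other side. *Npm3*, for a histone chaperone of the nucleophosmin family, had 0.854 (0.785 to 0.93) at the 3′ end of *Oga*. Thus *Oga* had less contact with the start bins of all 3 nearest genes than an average pair at these distances.

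Likeness of profiles was measured as Pearson's r of observed over expected contact across the bins more than 50 kb from both starts, as a description with no p, since all profiles share 1 library pool and their bins are not independent. The start bins most like *Oga* were those of *Npm3* (r = 0.65, 362 bins), *Kcnip2* (0.63, 361 bins) and *Poll* with *Dpcd* (0.61, 347 bins). Among genes more than 100 kb away, *Poll* with *Dpcd* was followed by *Armh3* (0.58) and *Hps6* (0.52). The lowest of 29 was *Lbx1* (-0.07). *Lbx1* thus had high contact with *Oga* for its distance and a dissimilar profile, whereas *Armh3* and *Hps6* had high contact for theirs and a similar one.

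The contact direction of a bin is the log2 ratio of its mean contact on the telomeric over that on the centromeric side, at equal distances from 10 to 200 kb. It turned at both ends of *Oga*. In the wild-type the *Fgf8* start bin had -1.42 (-1.47 to -1.37), with a mean signal of 118.5 on the telomeric and 316.6 on the centromeric side. The bin of *Npm3* and of the motif match between the genes had -0.81, and the bin after it, the first wholly inside *Oga*, had 0.14 (0.1 to 0.18). From there to its start bin, the 7 bins inside *Oga* stayed between -0.23 and 0.22, with nearly balanced contact. The *Oga* start bin had -0.14 (-0.18 to -0.09), with mean signals of 206.5 and 226.8. The bin after it had 0.94 (0.88 to 1.01), with 271.2 and 141.0. This step of 1.08 was the largest of 343 steps between neighbouring bins in the wild-type map. The following 10 bins stayed high, and all 11 bins beyond the start lay between 0.82 and 1.36. *Oga* therefore occupied a stretch with little direction between *Fgf8*, turned to the centromeric side, and *Kcnip2*, turned to the telomeric side.

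**Figure D2:**
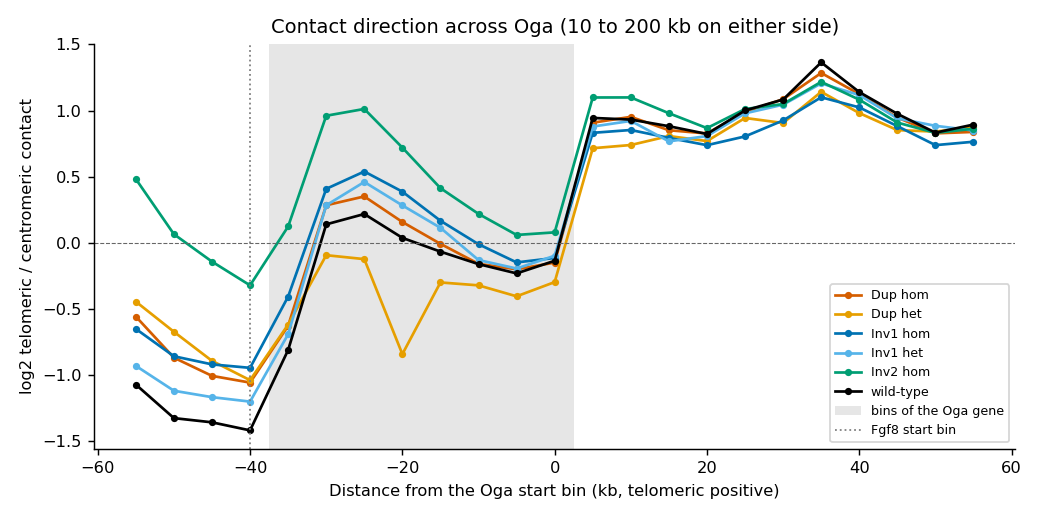
Log2 ratio of telomeric over centromeric contact (10 to 200 kb) for each 5 kb bin against its distance from the *Oga* start bin in kb, with a line for each of the 6 maps, the bins that touch the *Oga* gene in grey and the *Fgf8* start bin as a dotted line. All maps step up by 0.95 to 1.08 between the *Oga* start bin and the next, and lines differ most on the centromeric side, where the rearrangements lie.

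The step at the start of *Oga* was present in every map. It was 1.06 in *Dup*, 0.95 in *Inv1*, 1.02 in *Inv2*, 1.01 in heterozygous *Dup* and 0.98 in heterozygous *Inv1*, against 1.08 in the wild-type. It ranked 1 of 338 steps in *Dup* and heterozygous *Dup*, 2 of 343 in heterozygous *Inv1*, 3 of 343 in *Inv1* and 5 of 343 in *Inv2*. The bin after the start had fewer read pairs than the start bin in all maps. It had 0.513 (*Dup*), 0.565 (*Inv1*), 0.584 (*Inv2*), 0.604 (heterozygous *Dup*), 0.542 (heterozygous *Inv1*) and 0.644 (wild-type) of the median bin, and the part of this depth in the step was not tested. In recovered read pairs without bin factors the step was 0.78 to 0.93.

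The other turn, from the *Fgf8* start bin over the bin of *Npm3* into *Oga*, was present in every map as well. It spanned 1.34 in *Dup*, 1.35 in *Inv1*, 1.28 in *Inv2*, 0.94 in heterozygous *Dup* and 1.48 in heterozygous *Inv1*, against 1.56 in the wild-type. It was smallest in heterozygous *Dup*, whereas its levels moved most in *Inv2*, where the *Fgf8* start bin had -0.32 (-0.36 to -0.28), against -1.42 in the wild-type. In *Inv2* the bins inside *Oga* lay between 0.06 and 1.01, against -0.23 and 0.22 in the wild-type. The *Oga* start bin changed less, with 0.08 (0.04 to 0.12) in *Inv2* against -0.14 in the wild-type. The centromeric side of this measure reaches into the rearranged intervals in *Dup*, *Inv1* and *Inv2*, so a change there carries the changed order of the sequence with it.

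Set beside its neighbours in the wild-type, the *Oga* start had 43.5% of its profile on the telomeric side (42.9 to 44.1), where a profile is the deposited signal with all other bins but the 1 next to it on each side. The start bin of *Kcnip2* had 62.1% (61.5 to 62.7) and that of *Fgf8* 25.5% (25.1 to 26.0). The intervals of the 3 genes did not overlap, although *Fgf8* starts only 40 kb before and *Kcnip2* 35 kb beyond *Oga*. *Npm3*, whose start bin holds the 3′ end of *Oga*, had 31.4% (30.9 to 31.8) and stood between *Oga* and *Fgf8*. *Oga* gave 13.3% of its profile to the *Fgf8* TAD (12.95 to 13.7), whereas *Fgf8* gave 34.2% (33.7 to 34.7) and *Kcnip2* 6.75% (6.46 to 7.06). Over an equal reach of 100 kb on either side, 42.3% of the *Oga* signal was telomeric (41.5 to 43.2), and over 500 kb it was 49.7% (49.0 to 50.3).

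Across the genotypes the telomeric share of *Oga* moved little. It was 40.7% in *Dup* (40.2 to 41.2), 43.1% in *Inv1* (42.6 to 43.5), 42.1% in *Inv2* (41.6 to 42.5), 38.4% in heterozygous *Dup* (37.5 to 39.5) and 44.2% in heterozygous *Inv1* (43.7 to 44.8), against 43.5% in the wild-type. The intervals of *Inv1* and of heterozygous *Inv1* overlapped that of the wild-type, and the *Dup* values lay lowest. With a viewpoint of 3 bins the overlap with *Inv1* was lost, at 46.4% in *Inv1* (46.1 to 46.7) and 47.8% in the wild-type (47.4 to 48.1). In the *Dup* maps the copy number was kept in these shares, so bins of the duplication count with all their copies. The larger shifts were on the centromeric side. The *Lbx1* TAD took 18.9% of the profile in *Inv2* (18.6 to 19.3), against 11.4% in the wild-type (11.04 to 11.8), and the *Fgf8* TAD took 8.23% (7.99 to 8.48), against 13.3%. In *Dup* the centromeric flank took 6.48% (6.22 to 6.75), against 10.4% in the wild-type (10.0 to 10.8).

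**Figure D3:**
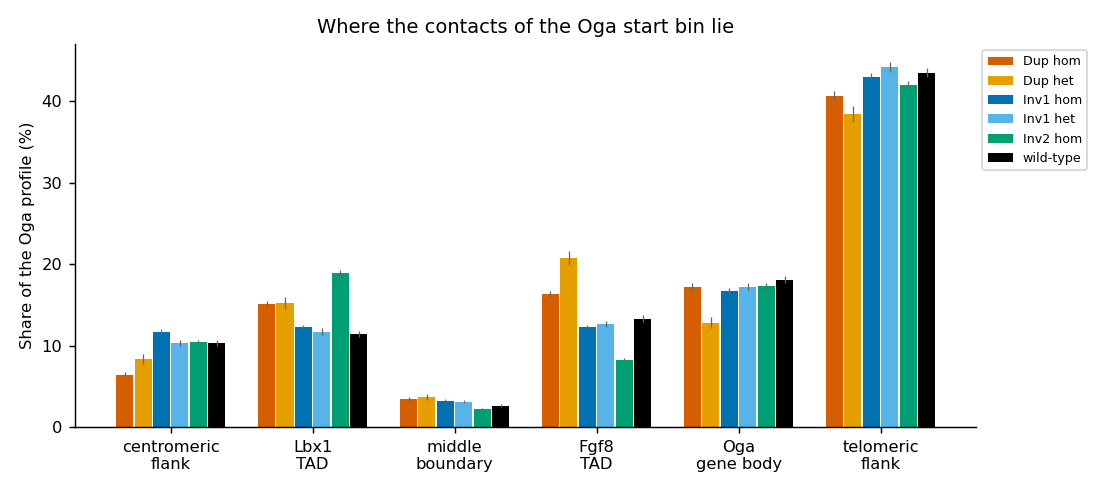
Share of the *Oga* profile in percent that fell in 6 regions, with a bar for each of the 6 maps and approximate 95% Wilson intervals for counting error. The *Lbx1* TAD stands at 18.9% in *Inv2* and 11.4% in the wild-type, whereas the telomeric flank stays between 38.4% and 44.2%.

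For ratios, mutant and wild-type maps were scaled together at each distance without the rearranged interval, so that the wild-type mean differs a little between comparisons, and the *Dup* maps were balanced again to equal bin totals. All mutants share the 1 wild-type map. In *Inv1*, the contact of *Oga* with the AER enhancer interval was lower, with a mean signal of 9.29 in *Inv1* and 14.7 in the wild-type and a ratio of 0.632 (0.578 to 0.691, 1070 and 1072 read pairs). The middle of this interval lies near the middle of the inversion, and the ratio expected from the new distances alone was 0.917. That expectation rests on the mean of all wild-type bin pairs at a distance, and not on the contact of *Oga* itself. The middle boundary, which the inversion carries towards *Oga*, was higher, with 20.1 in *Inv1*, against 15.7 in the wild-type, and a ratio of 1.28 (1.17 to 1.4). Here distance alone gave 1.53. The start bin of *Poll* and *Dpcd*, at the middle boundary, came from 223.2 and 223.1 kb to 148.1 and 148.2 kb from *Oga*, and its ratio was 1.03 (0.83 to 1.29), below the 1.47 of distance.

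Between the inversion and *Oga*, contact in *Inv1* was higher although no distance had changed. The 3 windows of 25 kb there had ratios of 1.21 to 1.27, and the lowest of their interval ends was 1.05. The *Fgf8* start bin, next to them, had 1.38 (1.18 to 1.6, 580 read pairs in *Inv1* and 245 in the wild-type). The *Fgf8* TAD as a whole held both kinds of window, and its ratio of 0.956 (0.916 to 0.999) went above 1 without scaling by distance. The start bin of *Fbxw4* had 0.391 (0.272 to 0.561), but it holds the breakpoint, and with a bin on either side the ratio was 0.858 (0.737 to 1.0). The telomeric flank had 1.02 (0.997 to 1.05) and the *Lbx1* TAD 1.01 (0.968 to 1.06), and both intervals held 1.

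In *Inv2*, *Oga* had less contact with the sequence of the wild-type *Fgf8* TAD and more with that of the wild-type *Lbx1* TAD. Regions keep their wild-type coordinates here, and the study places *Btrc* in an enlarged *Fgf8* TAD in *Inv2*. The start bin of *Lbx1*, outside the inversion, had 0.863 (0.657 to 1.13). The *Lbx1* TAD had a mean signal of 15.2 in *Inv2* and 9.32 in the wild-type, a ratio of 1.63 (1.56 to 1.69, 9723 and 3402 read pairs). The *Fgf8* TAD had 13.3 in *Inv2*, against 20.5 in the wild-type, a ratio of 0.649 (0.619 to 0.679). The AER enhancer interval had 0.587 (0.535 to 0.643). These are the directions that the exchanged distances give, but the sizes were smaller. Distance alone gave 2.04 for the *Lbx1* TAD, 0.477 for the *Fgf8* TAD and 0.413 for the AER enhancer interval. These expectations use the mean of all wild-type pairs at a distance. In the wild-type, *Oga* itself had 0.66 of that mean with the *Fgf8* TAD and 0.996 with the *Lbx1* TAD. The part of this in the smaller sizes was not tested.

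The windows of *Inv2* showed where observed and expected contact parted. At 495 to 515 kb from *Oga* in the wild-type order, a stretch that the inversion places beside the breakpoint nearest to *Oga*, the ratio was 2.21 (1.91 to 2.56), against 5.59 from distance. At 345 to 365 kb, inside the *Btrc* gene, it was 2.25 (1.94 to 2.62), against 1.5 from distance. The gene model *Gm6807*, which lies within *Btrc* on the other strand, had 2.2 at its start bin (1.6 to 3.01, 173 and 50 read pairs), against 1.189 from distance. The start bin of *Btrc*, moved from 420 to 171.4 kb, had only 1.18 (0.802 to 1.73, 88 and 37 read pairs), and 1.57 with a bin on either side (1.26 to 1.95), against 2.59 from distance. On the other side, the start of *Fbxw4*, moved from 123.4 to 468 kb, had 0.486 (0.34 to 0.695), against 0.261 from distance, and *Poll* with *Dpcd* had 0.752 (0.596 to 0.948), against 0.596. Over the windows inside the inversion, the ratios thus ran from 0.427 to 2.25. Distance alone gave a wider range, 0.165 to 5.59, with the limit given above.

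In *Dup*, a second copy of the interval separates *Oga* from everything centromeric of the interval by a further 541.1 kb. A copy of the interval, and the sequence between it and *Oga*, stay at their old distance. After the map was balanced for copy number, all regions of the interval had ratios a little below 1. The *Fgf8* TAD had a mean signal of 20.5 in *Dup* and 22.0 in the wild-type, a ratio of 0.932 (0.892 to 0.974). The *Lbx1* TAD had 0.94 (0.898 to 0.983) and the AER enhancer interval 0.925 (0.853 to 1.0). Distance alone gave 0.858, 0.865 and 0.796, so all 3 lay below 1 but above the value of distance. In the map as deposited, with the copy number kept, these ratios were 1.22, 1.36 and 1.35, whereas read pairs without bin factors gave 0.879, 0.933 and 0.994. At and beyond the centromeric edge of the duplication, the 3 windows at 595 to 665 kb from *Oga* had ratios of 0.479 to 0.603, where distance alone gave 0.534 to 0.786. They hold the start of *Tlx1*, whose own bin had 0.663 with only 14 read pairs in *Dup* and 27 in the wild-type (0.348 to 1.26), and 0.575 with a bin on either side (0.412 to 0.803).

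**Figure D4:**
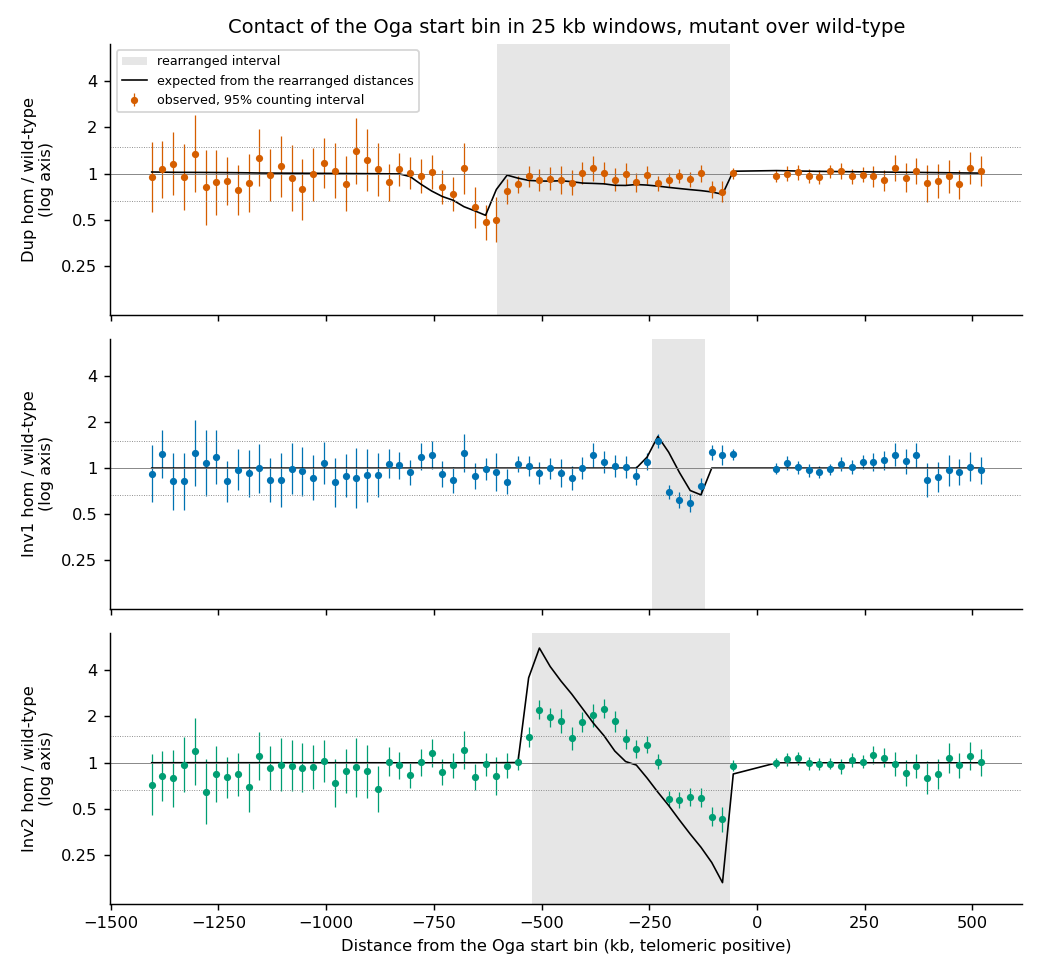
Ratio of contact of the *Oga* start bin in 25 kb windows, homozygous mutant over wild-type on a log axis, against distance in the wild-type order, with 95% counting intervals, the rearranged interval in grey, the ratio expected from the rearranged distances as a black line and the fold of 1.5 as dotted lines. In *Inv2* windows range from 0.427 at 70 to 90 kb to 2.25 at 345 to 365 kb, both nearer to 1 than the ends of the line.

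Windows past a fold of 1.5, with at least 20 read pairs in both maps, were counted for *Oga* and, as background, for every viewpoint bin of the map. In *Inv2*, 7 of 75 windows of *Oga* were higher and 7 lower (9.33% each), beside 6.3% and 5% over all viewpoint bins. Of the 7 lower windows 6 lay in the inversion, and the other, 1270 to 1290 kb away, had an interval that held 1 (0.397 to 1.05). In *Inv1* no window was higher and 2 were lower (2.67%), both in the inversion, beside 2.95% and 2.7%. In *Dup* no window was higher and 3 were lower (4%), beside 12.2% and 1.44%. The higher windows of *Dup* over all viewpoint bins thus had no counterpart at *Oga*. In heterozygous *Dup*, where the read pairs sufficed for 56 of the 75 windows, 1 was higher (1.79%) and 4 were lower (7.14%), beside 9.48% and 1.43%, and in heterozygous *Inv1*, none of 75 was higher and 1 was lower (1.33%), beside 2.32% and 3.03%. The *Inv1* counts of 0 to 2 windows did not stand above their background.

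On the telomeric side no window of *Oga* passed this fold in *Dup*, *Inv1*, *Inv2* or heterozygous *Inv1*. The 20 windows there ranged from 0.851 to 1.09 in *Dup*, 0.837 to 1.22 in *Inv1*, 0.799 to 1.12 in *Inv2* and 0.91 to 1.18 in heterozygous *Inv1*. In heterozygous *Dup* 1 of them fell to 0.616 (0.41 to 0.927, 38 read pairs against 139). *Armh3*, whose single start bin had the highest observed over expected contact on this side, had 0.803 (0.648 to 0.995) in *Dup*, 0.934 in *Inv1*, 0.899 in *Inv2*, 0.684 (0.489 to 0.956) in heterozygous *Dup* and 0.946 in heterozygous *Inv1*, and the interval held 1 in 3 of 5 comparisons. For *Hps6*, *Kcnip2*, *Lbx1*, *Btrc*, *Slf2*, *Kazald1*, *Tlx1* and the bin of *Twnk* it held 1 in 5 of 5 for the single start bin, where read pairs were few. With a bin on either side it excluded 1 for *Tlx1* in *Dup* and for *Btrc* in *Inv2*, both given above. For *Armh3* it then held 1 in every comparison, with 0.745 to 1.005 in *Dup* and 0.673 to 1.04 in heterozygous *Dup*. Farther on this side, single start bins differed for *Pitx3* in *Inv1*, with 2.09 (1.21 to 3.63, 62 and 16 read pairs), and *Nfkb2* in *Inv2*, with 0.632 (0.417 to 0.958). With a bin on either side, *Pitx3* had 1.32 (1.06 to 1.65) and the neighbouring *Gbf1* 1.31 (1.04 to 1.65) in *Inv1*. *Nfkb2* then had 0.954 (0.735 to 1.24) in *Inv2*. For *Ldb1* with *Pprc1*, *Nolc1* and *Elovl3* the single-bin interval held 1 in 5 of 5.

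Contact with the nearest genes on the other side ran higher in most maps, but not in heterozygous *Dup*. The pair of *Oga* and *Fgf8* starts had a ratio of 1.33 (1.13 to 1.56) in *Dup*, 1.38 (1.18 to 1.6) in *Inv1*, 1.23 (1.06 to 1.43) in *Inv2*, 1.03 (0.762 to 1.39) in heterozygous *Dup* and 1.24997 (1.06 to 1.47) in heterozygous *Inv1*. Of these 5, 4 had intervals above 1, and all share the wild-type value of 245 read pairs. With a bin on either side they were 1.16, 1.26, 1.08, 0.948 and 1.09. The interval then held 1 in *Inv2* too (0.999 to 1.16), as well as in heterozygous *Dup* (0.812 to 1.11). *Npm3* had 1.16 (1.04 to 1.3) in *Dup* and 1.21 (1.08 to 1.34) in *Inv1*, and its interval held 1 in the other 3. With a bin on either side, however, *Npm3* had 1.10 (1.04 to 1.18) in *Inv2*, 1.13 (1.05 to 1.22) in heterozygous *Inv1* and 0.865 (0.749 to 0.999) in heterozygous *Dup*, and no interval held 1. The telomeric boundary as a whole had 1.1 (1.04 to 1.16) in *Dup*, 1.13 (1.07 to 1.186) in *Inv1*, 1.05 (0.998 to 1.1) in *Inv2* and 1.13 (1.07 to 1.1895) in heterozygous *Inv1*, but 0.869 (0.78 to 0.969) in heterozygous *Dup*. These pairs lie outside all rearrangements, and their distances did not change. In *Dup*, however, the expectation from distance, balanced alike, was itself above 1. It was 1.07 for the telomeric boundary, 1.08 for the *Fgf8* start and 1.07 for *Npm3*, beside the observed 1.1, 1.33 and 1.16. For the telomeric boundary it was 1 in *Inv1*, 0.994 in *Inv2* and 1.04 in heterozygous *Dup*. The start bins of *Fgf8* and *Npm3* are neighbours within the telomeric boundary, so all of these are readings of the same stretch.

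The heterozygous *Inv1* map stood between *Inv1* and wild-type for both regions that differed most in *Inv1*, but not for all. For the AER enhancer interval it had 0.82 (0.747 to 0.899), beside 0.632 in *Inv1* and 1 for the wild-type. This is 49% of the homozygous change, a share that depends on the processing. Without scaling by distance, heterozygous *Inv1* had 0.963 (0.878 to 1.06), beside 0.681 in *Inv1*. In read pairs without bin factors it had 0.902, beside 0.676. For the middle boundary it had 1.17 (1.06 to 1.28), beside 1.28, or 60.1% of the change. The intervals of heterozygote and homozygote did not overlap for the enhancer interval but did for the boundary. For the telomeric boundary it equalled *Inv1* (1.13 in both), and for the *Fgf8* TAD it had 0.936 (0.892 to 0.981), beside 0.956. The heterozygous *Dup* map lay between *Dup* and wild-type for the *Lbx1* TAD (0.96, beside 0.94) and the centromeric boundary (0.995, beside 0.868), and outside that range for other regions. The *Fgf8* TAD had 1.22 (1.14 to 1.29) in it, against 0.932 in *Dup*, the AER enhancer interval had 1.14 (1.02 to 1.27), against 0.925, and the telomeric flank had 0.869 (0.835 to 0.905), against 0.969. The gene body of *Oga* had 0.804 (0.75 to 0.861), against 1.01. In this library the 5 bins from the *Fgf8* start to 20 kb before the *Oga* start had between 0.468 and 0.819 of the read pairs of the median bin, against 0.852 to 1.49 in *Dup* and 1.04 to 1.58 in the wild-type. The part of this depth in the ratios was not tested.

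**Figure D5:**
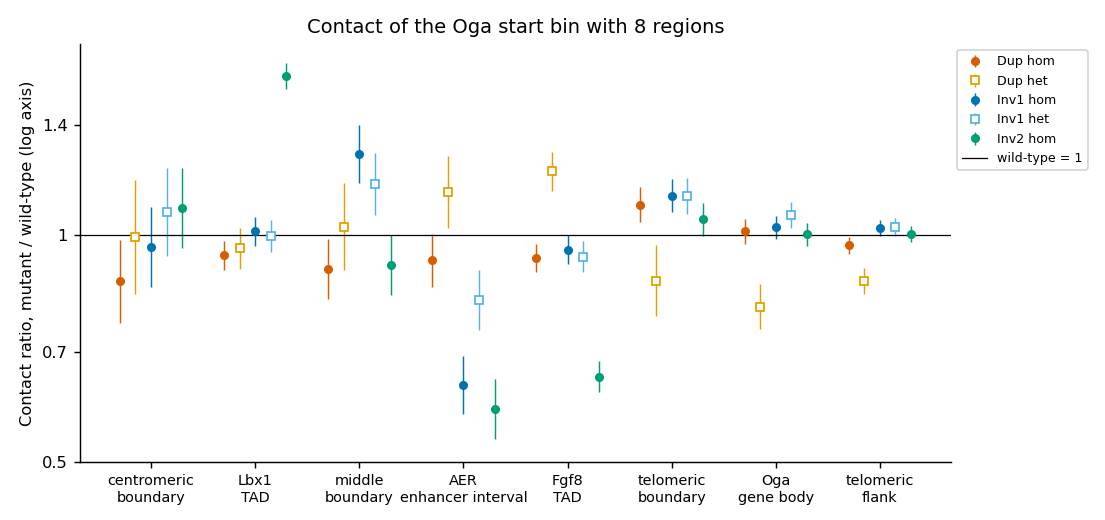
Ratio of contact of the *Oga* start bin with 8 regions, each mutant map over the wild-type on a log axis, with filled circles for homozygous and open squares for heterozygous maps, and 95% counting intervals. The *Inv2* point is at 1.63 for the *Lbx1* TAD and 0.649 for the *Fgf8* TAD, and the heterozygous *Inv1* point for the AER enhancer interval (0.82) lies between 0.632 and 1.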

How the data were processed

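Capture Hi-C was measured in 20 libraries of limb buds. The authors mapped reads to mm9 with HiCUP and Bowtie2 2.4.2, merged replicates per genotype, binned read pairs at 5 kb and deposited 6 maps of contact signal. This signal is Knight-Ruiz balanced with Juicer 1.19.02 for the wild-type and the inversions, and LOIC normalized, with copy number kept, for *Dup*. A further 3 deposited maps hold the authors' difference of mutant and wild-type signal as a score of either sign. They served only to check the joint scaling, which gave the same values at the *Oga* bin for *Inv1* and *Inv2* (slope 1) and a slope of 1.04 for *Dup*. All steps used Python 3.11.15, numpy 2.4.6 and matplotlib 3.10.9. Dividing the signal by solved bin factors gave whole read pairs for 100% of values (within 0.01): 13101700 in *Dup*, 11615891 in *Inv1*, 12790852 in *Inv2*, 3350758 in heterozygous *Dup*, 7804215 in heterozygous *Inv1* and 7867931 in the wild-type. These set the 95% intervals, set on the log scale at 1.96 standard errors for ratios and by Wilson's method for shares. For shares, Wilson's method took the share of signal and the number of read pairs. It left out the unequal weights of bins, so these intervals are approximate.

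Maps were scaled jointly at each distance, then to a total of 1000000, both over pairs outside the rearranged interval. Contact expected from distance came from the wild-type mean at each distance, summed over copies, balanced and scaled alike. Genes came from GENCODE on mm9 with symbols updated through RefSeq, for 34 protein-coding genes that start in the region. Regions were read by eye from the study's wild-type map. The genes named were those of the locus with *Slf2* and *Twnk*, the nearest on either side, the 5 start bins with the highest observed over expected contact and the 3 most similar profiles. *Gm6807*, the other gene starts outside this list, the single windows and bins and the depth of bins near *Fgf8* were chosen after their values were seen. Members, lists and measures were chosen with earlier results of these data known. Of the steps, only the ratio after joint scaling was tested on simulated maps, for *Oga* with the *Fgf8* TAD and the *Inv1* interval left out. Contact direction, shares, window counts and the expectation from distance were not tested in this way. The alternatives tried are the width of the viewpoint, the scaling, the bin factors, copy number, margin, fold, read minimum and reach.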

Additional observations from a re-analysis of the deposited data

How the results depend on the processing

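No paired analysis was possible because the deposited maps merge the replicates of each genotype, and for the same reason no replicate could be left out. Of 140 values under another setting, 67 stayed within the counting interval, or within 1.5 times a count, and 66 moved. The other 7 changed their side of 1 although the interval of the main value had not held 1. Values whose main interval held 1 are not among these 7, also where they crossed 1. An example is the AER enhancer interval in *Dup*, which went from 0.925 to 1.35 with the copy number kept. The causes were not tested unless the setting is itself the change. Read depth limits single bins, and the heterozygous *Dup* library most.

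With the copy number kept, *Dup* had ratios of 1.22 for the *Fgf8* TAD and 1.36 for the *Lbx1* TAD, both then above 1, with 1.35 for the AER enhancer interval and 0.934 for the telomeric flank, and heterozygous *Dup* had 1.46, 1.193 and 1.43 for the first 3 regions. Without scaling by distance, the *Fgf8* TAD stood above 1 in *Inv1* (1.03) and heterozygous *Inv1* (1.08). The *Lbx1* TAD then had 1.20 in *Inv1*, 1.75 in *Inv2* and 1.17 in heterozygous *Inv1*, the telomeric flank 1.10 in *Inv1*, 0.819 in heterozygous *Dup* and 1.15 in heterozygous *Inv1*, and the AER enhancer interval 0.963 in heterozygous *Inv1*. In read pairs without bin factors, the *Fgf8* TAD had 0.879 in *Dup*, 1.02 in *Inv1*, 0.694 in *Inv2*, 1.10 in heterozygous *Dup* and 1.01 in heterozygous *Inv1*, of which both *Inv1* maps changed their side of 1. The *Lbx1* TAD had 1.17 in *Inv1*, 1.76 in *Inv2*, 1.06 in heterozygous *Dup* and 1.06 in heterozygous *Inv1*, the telomeric flank 0.637 in *Dup* and 0.679 in heterozygous *Dup*, and the AER enhancer interval 0.902 in heterozygous *Inv1*. With the rearranged interval kept in the scaling, the *Lbx1* TAD had 0.886 in *Dup*, 1.45 in *Inv2* and 0.9 in heterozygous *Dup*. A viewpoint of 3 bins gave 0.984 for the *Lbx1* TAD and 1.00 (1.00163), now above 1, for the telomeric flank in *Dup*.

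The telomeric share with 3 bins was 44.5% in *Dup*, 46.4% in *Inv1*, 45.4% in *Inv2*, 41.5% in heterozygous *Dup*, 47.6% in heterozygous *Inv1* and 47.8% in the wild-type. Leaving out 25 kb on either side gave 42.2% in *Dup*, 44.8% in *Inv1*, 43.7% in *Inv2*, 46.5% in heterozygous *Inv1* and 45.8% in the wild-type. A fold of 5/4 gave 3 higher and 9 lower windows in *Dup*, 4 and 4 in *Inv1*, 11 and 13 in *Inv2*, 4 and 11 in heterozygous *Dup*, and 3 and 7 in heterozygous *Inv1*. With at least 50 read pairs, heterozygous *Dup* and heterozygous *Inv1* had 0 lower windows. The settings for the step in direction after the *Oga* start were chosen after seeing the data. A reach of 100 kb gave 1.28 in *Dup*, 1.16 in *Inv1*, 1.20 in *Inv2*, 1.16 in heterozygous *Inv1* and 1.28 in the wild-type. A reach of 400 kb gave 0.89 in *Dup*, 0.73 in *Inv1*, 0.81 in *Inv2*, 0.76 in heterozygous *Dup*, 0.77 in heterozygous *Inv1* and 0.90 in the wild-type. Without bin factors it was 0.89 in *Dup*, 0.78 in *Inv1*, 0.82 in *Inv2*, 0.86 in heterozygous *Dup*, 0.80 in heterozygous *Inv1* and 0.93 in the wild-type.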
